A study of Mus musculus with 140 samples.

Results

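Arterioles are the small muscular vessels that feed the glomeruli and set the resistance of the kidney's blood supply. The 8 libraries described here came from arterioles cut by laser microdissection from the kidneys of 8 male wild-type C57BL6/OlaHsd mice. They are all arteriole libraries at 72 h with a disease state of sham operation or cecal ligation and puncture (CLP) among the 140 libraries of the series. CLP opens the ligated caecum and lets gut contents leak into the abdomen, which is a standard way to give a mouse sepsis, and sham operation is its surgical control. Other libraries of the same strain and sex are used beside them: arterioles at 4 h and 24 h after CLP or sham operation, and the glomeruli, peritubular capillaries, post-capillary venules and whole kidney (which was not microdissected) of the same 8 mice at 72 h. There were 4 sham mice and 4 CLP mice, with 1 arteriole library each, and each time point used other mice. RNA was read at the 3′ end of transcripts (Lexogen QuantSeq), so a count is a number of reads near the polyadenylated end of a gene and does not depend on its length. Dissected area and severity of disease are not used here.

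An arteriole wall is made of smooth muscle around a single sheet of endothelium, held in a matrix of collagen, elastin and proteoglycans. The muscle sets the diameter through actin and myosin, and the endothelium relaxes it with nitric oxide and prostacyclin or contracts it with endothelin. The endothelium also keeps blood fluid with thrombomodulin and the protein C system and takes part in clotting through von Willebrand factor. In sepsis this lining is known to lose its barrier, to bind leukocytes and to turn towards clotting. The series was made to compare such coagulation and inflammation genes between the kidney's vessels, and the comparison of CLP with sham arterioles at 72 h asks which of them, and which genes of the vessel wall, differed late after the operation.

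The dissected tissue carried the markers of its label. Levels are given as CPM, the usual unit of a gene's counts relative to the scaled total of its library. In the marker sums of this paragraph, CPM are relative to each library's own total, without scaling. The summed level of 20 smooth muscle genes had a median of 51700 CPM over the 8 libraries. In the same mice it was 8064 in glomeruli, 2390 in venules, 1335 in whole kidney and 1011 in peritubular capillaries. The 14 arterial endothelium genes summed to a median of 11130 CPM, against 2190 in glomeruli, 1992 in venules, 791.4 in whole kidney and 622.3 in peritubular capillaries. Tubule RNA was present as well: 23 proximal tubule genes, none of them at 0 in all 8 libraries, summed to a median of 6741 CPM in arterioles and 68000 in whole kidney. Renin, which marks the juxtaglomerular cells at the end of the afferent arteriole, was nearly absent, with Ren1 counted in 5 of the 8 libraries at no more than 24.2 CPM.

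The libraries held 8283851 to 16773343 counts in sham mice and 7252351 to 14800337 in CLP mice. Sham libraries detected 7002, 9621, 8684 and 8183 genes and CLP libraries 7650, 8034, 7784 and 6534, which is 8372 ± 1091 against 7500 ± 663.7 (SD, n = 4 each). The groups overlap, and a 2-sided exact permutation test gave p = 0.2286, with 0.02857 the smallest value that 4 against 4 allows. Without sham replicate 1 the difference was -1329 genes (exact p = 0.02857), without sham replicate 2 it was -455.8 (exact p = 0.4286) and without CLP replicate 4 it was -549.8 (exact p = 0.4571). Arterioles at 4 h and in healthy mice detected more genes per library, between 11339 and 13758. Those at 24 h detected about as few as at 72 h, with 6972 to 9145 in sham and 7820 to 8529 in CLP. Counting was close to all or none at 72 h. A detected gene had a median count of 361.5 to 744, while 3768 genes were counted in a single library of the 8 and 2619 of the table's 34255 genes in all 8. Those 2619 genes carried 72.9% to 77.6% of each library's counts. The values below therefore lean on genes counted in all 8 libraries, and a gene at 0 in some libraries is given with its value in each.

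**Figure D1:**
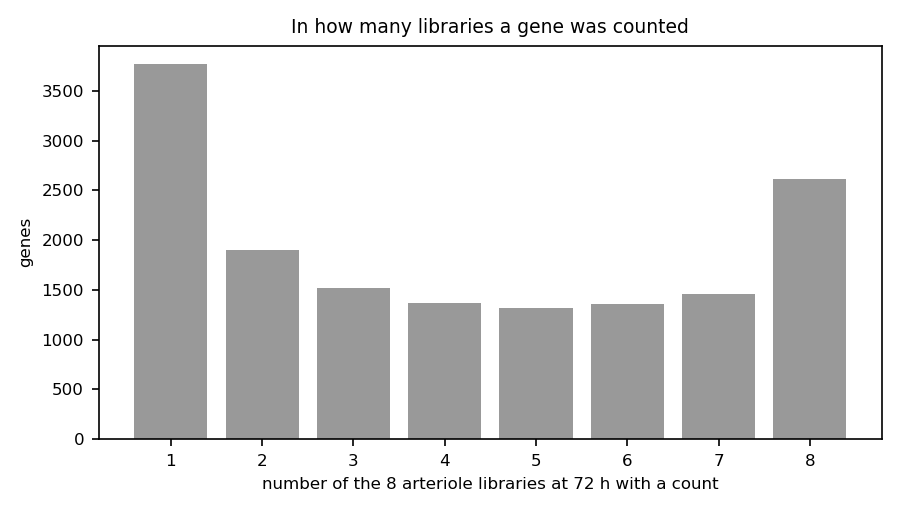
Number of genes (vertical axis) counted in exactly 1 to 8 of the 8 arteriole libraries at 72 h (horizontal axis). The bar at 1 library (3768 genes) is taller than that at 8 libraries (2619 genes), with between 1321 and 1905 genes at each number from 2 to 7.

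No gene differed between CLP and sham arterioles at an adjusted p below 0.05 (edgeR's quasi-likelihood test, 12183 genes, percent called 0%). At an unadjusted p below 0.05 stood 2100 genes (17.2%), of which 775 were higher in CLP (6.36%) and 1325 lower (10.9%). Among the 2616 tested genes counted in all 8 libraries the share was smaller: 106 genes (4.05%), 46 higher (1.76%) and 60 lower (2.29%). That share is below the p threshold of 0.05 itself. Of the same 2616 genes, the 4 CLP values lay wholly above the 4 sham values for 43 (1.64%) and wholly below for 57 (2.18%), together 3.82%. Of all ways to split 8 different values 4 against 4, a fraction of 0.02857 gives no overlap. Their median log2 fold change was 0.07, with 1413 genes on the positive and 1203 on the negative side, so the lists below are read against a centre close to 0. DESeq2 on the same 28 arteriole libraries called 1851 genes at its adjusted p, of which 31 were counted in all 8 libraries. The smallest adjusted p of the quasi-likelihood test was 0.0734. It was shared by mt-Cytb, which was counted in all 8 libraries, and by Hspd1, Lrg1 and Rab13, which were not. Fold changes below are log2 of CLP over sham with the standard error (SE) of that fit, and every unadjusted p given fails the adjustment over all genes.

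**Figure D2:**
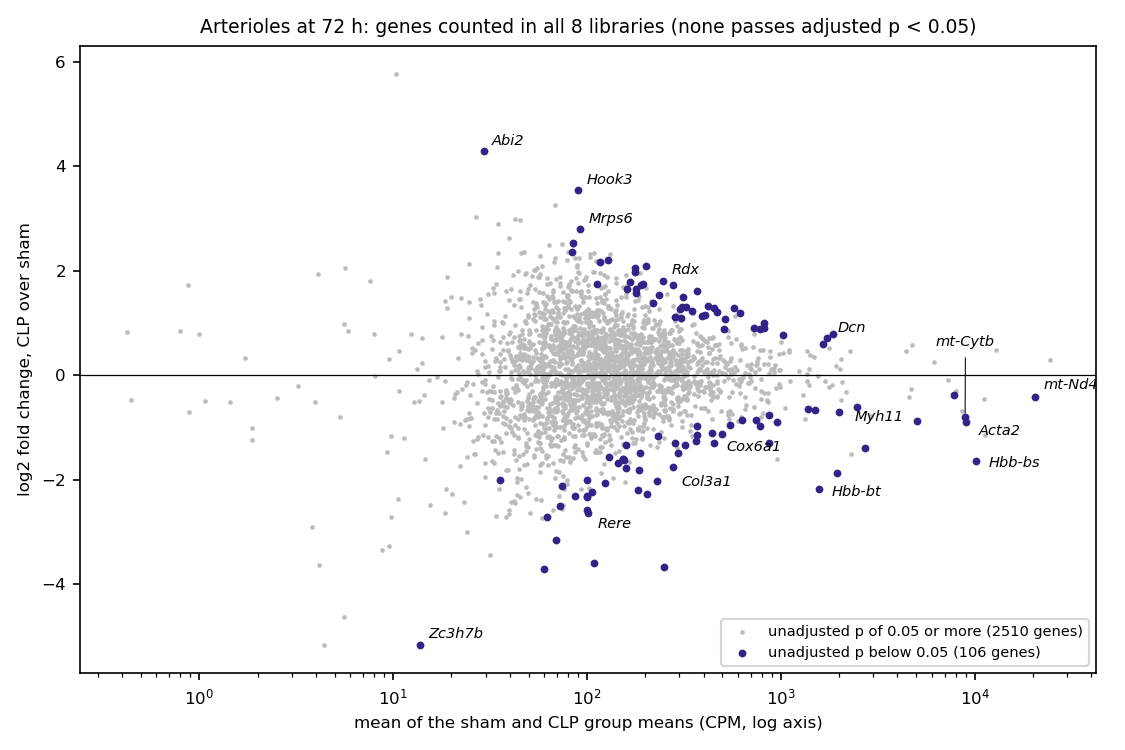
Log2 fold change of CLP over sham (vertical axis) against the mean of the group means in CPM (horizontal log axis) for the 2616 tested genes counted in all 8 libraries. The 106 genes at an unadjusted p below 0.05 are dark. Several of the highly expressed ones (Hbb-bs, Acta2, mt-Cytb, Myh11) lie below 0.

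Transcripts of the respiratory chain stood lower in CLP arterioles, both those read from the mitochondrial genome and those of nuclear genes. mt-Cytb encodes cytochrome b, the mitochondrial subunit of complex III (chromosome M, 14145 to 15288, GENCODE M21 on GRCm38). It stood at 8906, 12950, 13370 and 10270 CPM in the sham libraries 1 to 4 and at 4534, 7578, 6951 and 6946 CPM in the CLP libraries 1 to 4. Every CLP library lay below every sham library, and the log2 fold change was -0.81 ± 0.18 (unadjusted p = 2.09e-05, adjusted p = 0.0734). Leaving out sham replicate 1 brought mt-Cytb below an adjusted p of 0.05, as did dropping the filter on low counts. mt-Nd1, a subunit of complex I, also separated the groups, with 7975 to 9354 CPM in sham and 6176 to 7767 in CLP (-0.38 ± 0.16). mt-Nd4, another subunit of complex I, overlapped slightly, at 18680 to 28730 CPM in sham against 14220 to 21390 in CLP (-0.42 ± 0.17). Of the 15 mitochondrial genome transcripts listed, 8 were counted in all 8 libraries and 5 were at 0 in all of them. All 8 had a negative log2 fold change, with a median of -0.49. They include mt-Rnr1 and mt-Rnr2, which are mitochondrial ribosomal RNAs and not subunits of the chain. Of the 8, 4 (mt-Cytb, mt-Nd1, mt-Nd4 and mt-Rnr1) reached an unadjusted p below 0.05. Over all 2616 tested genes counted in all 8 libraries, 2.29% were lower and 1.76% higher at that p.

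Nuclear genes of the chain gave the same sign. Of 27 listed, 24 were counted in all 8 libraries, 20 of these had a negative log2 fold change, and their median was -0.64 beside 0.07 for all such genes. Unadjusted p was below 0.05 for 7, all lower in CLP, where 2.29% of all genes counted in all 8 libraries were lower at that p. These were Cox6a1, Cox5a, Cox7a2 and Cox7b of cytochrome c oxidase, Uqcrq of complex III, Ndufa1 of complex I and Atp5b of the ATP synthase. Cox6a1 (chromosome 5, 115345642 to 115348981) stood at 739.2, 615.6, 724.6 and 493.5 CPM in sham and at 210.7, 227.9, 423.5 and 187.9 in CLP, without overlap (-1.29 ± 0.40, unadjusted p = 0.00136). Atp5b, the catalytic beta subunit, stood at 851.8, 872.6, 810.9 and 702.1 CPM in sham and at 128.7, 452.2, 527.2 and 674.9 in CLP, also without overlap (-0.86 ± 0.40). Cox7a2 was tight within the sham group, at 445.2 to 508.8 CPM, against 189.6 to 332 in CLP (-0.98 ± 0.43). Ndufa2, Ndufs8, Cox4i1 and Atp5e went the other way, with log2 fold changes of 0.71, 0.53, 0.33 and 0.25 that did not pass either threshold. Summed over the list, sham libraries held 7757 to 10160 CPM and CLP libraries 5227 to 6473, with no overlap. The mitochondrial genome list summed to 62560 to 93420 CPM in sham and 39160 to 63350 in CLP, where CLP replicate 1 reached into the sham range. Proximal tubule cells are also rich in mitochondria: their 23 markers summed to 2461 to 12400 CPM in sham and 3386 to 8465 in CLP, and their part in the respiratory chain values was not tested. In bulk tissue like this, fewer cells of a type and less RNA per cell cannot be told apart.

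**Figure D3:**
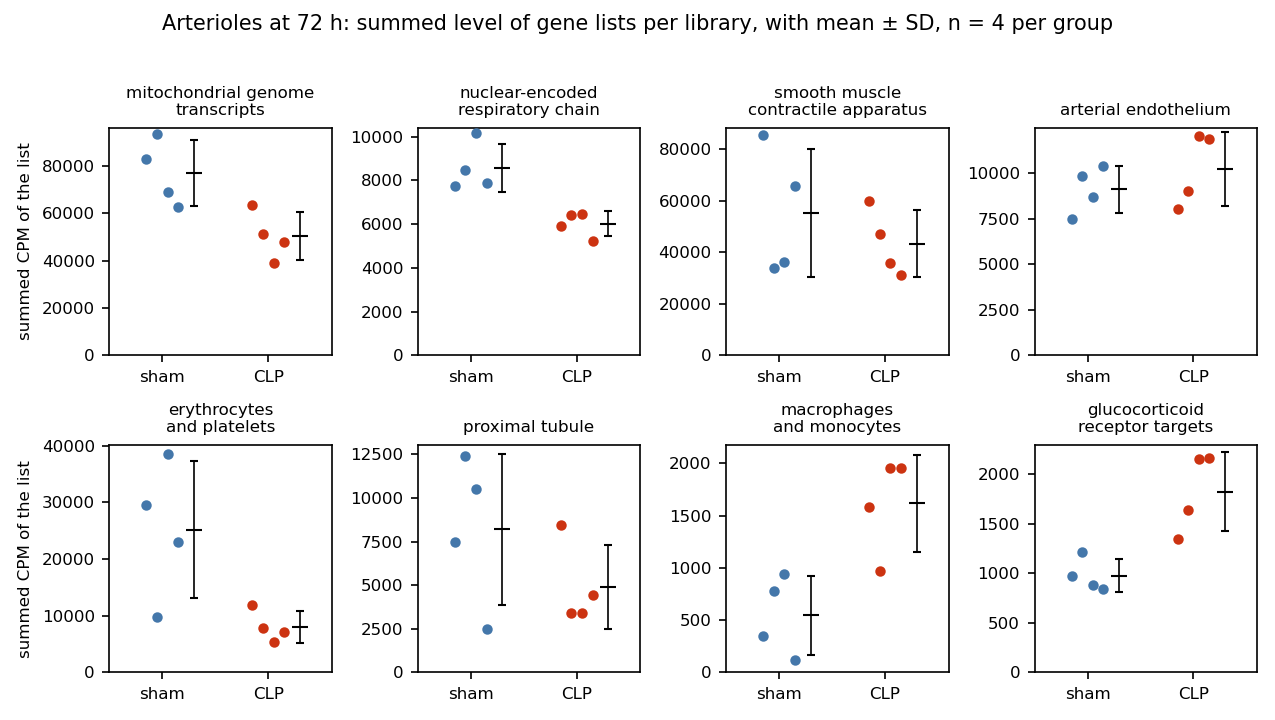
Summed CPM of 8 of the 39 gene lists (vertical axes, each from 0) in the 4 sham and 4 CLP arteriole libraries at 72 h. Points are libraries, bars the mean ± SD. The nuclear-encoded respiratory chain (CLP 5227 to 6473), macrophages and monocytes (CLP 971.7 to 1955) and glucocorticoid receptor targets (CLP 1341 to 2157) separate the groups, whereas smooth muscle, arterial endothelium and proximal tubule overlap.

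Contractile genes of the smooth muscle were mixed, with several of the most abundant lower in CLP. Acta2 encodes smooth muscle alpha-actin (chromosome 19, 34241090 to 34255590). It stood at 17980, 6274, 8118 and 14710 CPM in sham and at 4708, 10920, 5576 and 3975 CPM in CLP. The groups overlap because CLP replicate 2 exceeded sham replicates 2 and 3, and the log2 fold change was -0.90 ± 0.34 (unadjusted p = 0.0149). The heavy chain of smooth muscle myosin, Myh11 (chromosome 16, 14194535 to 14291372), stood at 9554, 4616, 4273 and 7838 CPM in sham and 4227, 5257, 2968 and 1829 in CLP (-0.88 ± 0.28). Of 20 listed genes, 18 were counted in all 8 libraries, 7 with a positive and 11 with a negative log2 fold change, and the median was -0.29. Tropomyosin Tpm1, the light chain Myl6 and the intermediate filament desmin (Des) were also below an unadjusted p of 0.05, at -0.60, -0.91 and -1.69. Leiomodin Lmod1, which nucleates actin filaments, was the 1 member below that p in the other direction: 853.1, 374.3, 303.6 and 662.9 CPM in sham against 1837, 856.9, 699.6 and 683 in CLP (0.89 ± 0.45). The myosin light chain Myl9 (-0.31 ± 0.33) and its kinase Mylk (-0.10 ± 0.34) overlapped broadly. The list summed to 33760 to 85670 CPM in sham and 31060 to 59940 in CLP, and the SD within sham, 24900 CPM, was larger than the gap between the means of 55340 and 43440. Actn4, the actin cross-linker alpha-actinin 4, stood at 916.2 to 1624 CPM in sham and 339.4 to 808.1 in CLP (-1.30 ± 0.37, unadjusted p = 0.000511). Actn4 was chosen after its values were seen.

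Pericyte and renin lineage genes did not pass. Of 11 listed, 6 were counted in all 8 libraries and all 6 had a negative log2 fold change (median -0.52), while the median over all 11 was -0.16. Ren1 itself was at 0.34 ± 2.18. Rgs5, a brake on G-protein signalling that marks pericytes and arteriolar muscle, stood at 4938, 4335, 4518 and 7256 CPM in sham and at 1810, 5187, 4890 and 3798 in CLP (-0.42 ± 0.32). The overlap is wide, with CLP replicates 1 and 4 below the sham range and the other 2 inside it.

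Fibrillar collagens stood lower in CLP arterioles and the proteoglycan decorin higher. Col3a1, the type III collagen of stretchable vessel walls (chromosome 1, 45311538 to 45349706), stood at 573.8, 382.6, 402.1 and 356.1 CPM in sham and at 86.01, 265.7, 87.93 and 67.66 in CLP. No CLP library reached the sham range, and the log2 fold change was -1.76 ± 0.55 (unadjusted p = 0.00147). Both chains of type I collagen were lower as well, with -1.11 ± 0.42 for Col1a1 and -1.31 ± 0.54 for Col1a2, each overlapping. Sparc, a secreted protein that binds collagen, was at 1505 to 2623 CPM in sham and 961.9 to 1449 in CLP without overlap (-0.66 ± 0.27). Among basement membrane genes, perlecan (Hspg2) stood at 442.8, 369.8, 540.8 and 715.9 CPM in sham and at 141.3, 237.8, 337 and 143.9 in CLP (-1.27 ± 0.44, unadjusted p = 0.0043), also without overlap. The type IV collagen chain Col4a2 was at -0.95 ± 0.42 (unadjusted p = 0.0268) and its partner Col4a1 at 0.35 ± 0.37, both overlapping. Decorin (Dcn), which coats collagen fibrils, stood at 921.7, 1965, 1589 and 823.2 CPM in sham and at 1537, 2327, 1851 and 2914 in CLP (0.70 ± 0.32, unadjusted p = 0.0306). Of 16 matrix and fibroblast genes, 15 were counted in all 8 libraries, 8 positive and 7 negative, with a median of 0.16. Matrix genes of arterial muscle such as elastin (Eln, -0.38 ± 0.46) and matrix Gla protein (Mgp, 0.25 ± 0.21) overlapped between groups.

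Among vasoactive genes the endothelial nitric oxide synthase Nos3 was lower at an unadjusted p below 0.05. Endothelin-1 (Edn1) stood higher without reaching that p. Nos3 makes the nitric oxide that relaxes the muscle (chromosome 5, 24364810 to 24384474). It stood at 262.7, 227.8, 447.9 and 352.7 CPM in sham and at 145.1, 207, 54.54 and 166 CPM in CLP, with no overlap (-1.17 ± 0.49, unadjusted p = 0.0184, adjusted p = 0.165). Edn1, the precursor of a strong constrictor, stood at 11.05, 70.97, 106.1 and 57.86 CPM in sham and at 191.9, 240.6, 126.8 and 134.7 in CLP. Its groups do not overlap either, yet its log2 fold change of 1.496 ± 1.20 had an unadjusted p of 0.214. Edn1 was chosen after its values were seen. The prostacyclin synthase Ptgis overlapped, at 36.8 to 562.6 CPM in sham and 209 to 826.5 in CLP (0.69 ± 0.49). The inducible synthase Nos2 and the cyclooxygenase Ptgs2 were counted in no library. Of the 32 listed genes, 11 were counted in all 8 libraries, with a median of 0.18. Of the 26 tested, 5 were lower at an unadjusted p below 0.05 and 0 higher. Among all genes tested 10.9% were lower and 6.36% higher at that p. Of the 5 only Nos3 was counted in all 8.

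Coagulation genes, which the series' title names, were mostly too thinly counted for a comparison. Of 28 procoagulant genes, 3 were counted in all 8 libraries (Vwf, F2r and Itgb3) and 11 were at 0 in all of them. Von Willebrand factor, which tethers platelets (Vwf, chromosome 6, 125546774 to 125686679), stood at 215.1, 29.1, 14.17 and 267.6 CPM in sham and at 865.3, 360.5, 308.5 and 7.91 in CLP. CLP replicates 1 to 3 lay above every sham library and CLP replicate 4 below all of them (1.55 ± 0.80, unadjusted p = 0.0601). The thrombin receptor F2r (0.28 ± 1.20) and the platelet and endothelial integrin subunit Itgb3 (0.05 ± 1.21) had errors wider than their differences. Tissue factor, F3, the starter of clotting, reached no more than 0.804 CPM in any library. Of 17 anticoagulant genes, 6 were counted in all 8 and 6 in none. Thrombomodulin (Thbd), which turns thrombin into an activator of protein C, stood at 28.31, 104.6, 112.5 and 46.65 CPM in sham and at 1.464, 101.9, 207.3 and 423.5 in CLP (1.33 ± 0.94, unadjusted p = 0.158). Its 4 CLP values spread wider than the sham values on both sides. Anxa5 (0.14 ± 0.56), Serpine2 (-0.32 ± 0.56) and Entpd1 (0.87 ± 1.39) overlapped, and Nos3 and Ptgis are also on this list. For fibrinolysis, Anxa2 and S100a10, which together form the plasminogen receptor, were counted in all 8 libraries of 11 genes listed, at -0.79 ± 0.62 and -1.48 ± 1.10. The whole fibrinolysis list summed to 295 to 742.7 CPM in sham and 79.85 to 323.3 in CLP, which overlap. At an unadjusted p below 0.05, 2 of 15 tested procoagulant genes were higher and 1 lower. Of 10 anticoagulant genes tested 3 were lower and of 8 fibrinolysis genes 2, with 0 higher in either list. Among these only Nos3 was counted in all 8. The shares over all genes tested were 6.36% higher and 10.9% lower at that p.

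General endothelial genes overlapped between groups. Of 15 pan-endothelial genes, 11 were counted in all 8 libraries with a median log2 fold change of 0.05. Pecam1, the junction molecule of all endothelium, stood at 2841, 1201, 1240 and 1780 CPM in sham and at 1648, 1561, 1953 and 1378 in CLP (-0.11 ± 0.34). The venous transcription factor Nr2f2 was the member of the venous and capillary list that reached an unadjusted p below 0.05: 382.9, 228.9, 106.1 and 114.7 CPM in sham against 463.1, 379.7, 548.7 and 560 in CLP (1.23 ± 0.57, unadjusted p = 0.032). Of 14 leukocyte adhesion molecules, 6 were counted in all 8 libraries and 4 in none, and none reached that p. Vcam1, an adhesion molecule induced by inflammation, stood at 151.5, 247.1, 165.9 and 43.73 CPM in sham and 158.4, 117.8, 193.2 and 155.3 in CLP (0.04 ± 0.58). Cd34 was higher with a wide error (1.95 ± 1.28), whereas Icam2 (-0.35 ± 0.69), F11r (-0.46 ± 0.87) and Jam3 (0.26 ± 1.41) had no clear direction.

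Cytokine genes were hardly counted. Of 25, 13 were at 0 in all 8 libraries and 2 were counted in all. Cx3cl1, fractalkine, a chemokine anchored on the endothelium, stood at 124.2, 266.4, 278.5 and 110.7 CPM in sham and at 18.33, 69.17, 102 and 72.69 in CLP, without overlap (-1.57 ± 0.80, unadjusted p = 0.0496). The other, Cxcl16, ranged from 1.105 to 168.9 CPM in sham and from 31.02 to 525.4 in CLP (1.69 ± 1.45). Of the 9 cytokine genes tested, 3 were lower at an unadjusted p below 0.05 and 0 higher. Of the 3 only Cx3cl1 was counted in all 8. Over all genes tested 10.9% were lower and 6.36% higher at that p. Interferon-induced genes had members of both signs, with a median log2 fold change of -1.05 over those tested. Of 24 listed, 4 were counted in all 8, 3 of them negative, with a median of -1.12 and none at an unadjusted p below 0.05. Of the 20 tested, 3 were higher at that p and 1 lower, each counted in only 1 or 2 libraries. Ifitm3, an interferon-induced membrane protein outside the list and chosen after its values were seen, stood at 861.6, 843, 780.6 and 540.7 CPM in sham and at 1907, 820.7, 1470 and 955.7 in CLP (0.77 ± 0.33, unadjusted p = 0.0211), which overlap. Rsad2, the antiviral protein viperin, stood at 110.7, 120.4, 71.48 and 85.4 CPM in sham and at 2.997, 1.266, 0.2601 and 69.05 in CLP, without overlap yet at an unadjusted p of 0.143 (-2.40 ± 1.63). The interferon list summed to 365.8 to 752.3 CPM in sham and 190.6 to 430.5 in CLP, and CLP replicate 3 was the library inside the sham range.

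S100a8 and S100a9 were counted in CLP arterioles and in no sham library. S100a8, a calcium-binding alarmin abundant in neutrophils (chromosome 3, 90668978 to 90670035), had no count in any of the 4 sham libraries. It stood at 51.99, 290.1, 298.9 and 144.4 CPM in the CLP libraries. Against a floor of 3 counts per library this is 651.1-fold higher. Counting was close to all or none, so a 0 need not mean a level below that floor. It did not pass the quasi-likelihood test over 28 libraries (adjusted p = 0.158). A fit of the 8 libraries alone gave it an adjusted p of 0.00216. With every sham library at 0, it passed the filter on low counts there through the CLP libraries only. That p is therefore no separate support. Its partner S100a9 was at 0 in all sham libraries and in CLP replicate 1, and at 188, 80.47 and 77.71 CPM in CLP replicates 2 to 4. Of 16 neutrophil genes, 11 were at 0 in all 8 libraries, among them the granule genes Ngp, Camp, Ltf, Elane and Mpo and the surface markers Ly6g, Cxcr2 and Csf3r. The list summed to 0 to 0.789 CPM in sham and 51.99 to 622.1 in CLP.

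Among macrophage genes 1 of the 16 tested was higher and 1 lower at an unadjusted p below 0.05, neither counted in all 8 libraries. C1qa, a chain of the complement starter C1q made by macrophages (chromosome 4, 136895917 to 136898803), stood at 44.37, 35.69, 31.87 and 49.88 CPM in sham and at 284.6, 52.55, 174.5 and 221.3 in CLP. The groups do not overlap, although CLP replicate 2 was only just above sham (2.18 ± 1.45, unadjusted p = 0.135). All 4 members counted in all 8 libraries (C1qa, Lyz2, Csf1r and Apoe) had a positive log2 fold change, with a median of 1.165. The 18 genes summed to 346.4, 776, 939.4 and 119.4 CPM in sham and 1587, 971.7, 1955 and 1953 in CLP, without overlap. Ceruloplasmin (Cp), a copper-carrying acute phase protein, stood at 121.9, 131.4, 178.2 and 144 CPM in sham and at 356.4, 232, 204 and 412.5 in CLP, again without overlap (1.07 ± 0.73). Of 20 acute phase and complement genes tested, 6 were higher at an unadjusted p below 0.05 and 0 lower. None of the 6 was counted in all 8 libraries. The shares over all genes tested were 6.36% higher and 10.9% lower at that p. H2-Aa, a class II antigen-presenting chain, was lower, at 89.77, 349.3, 419.6 and 124.3 CPM in sham and 95.55, 69.17, 115.8 and 4.703 in CLP (-1.79 ± 0.69, unadjusted p = 0.0105).

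**Figure D4:**
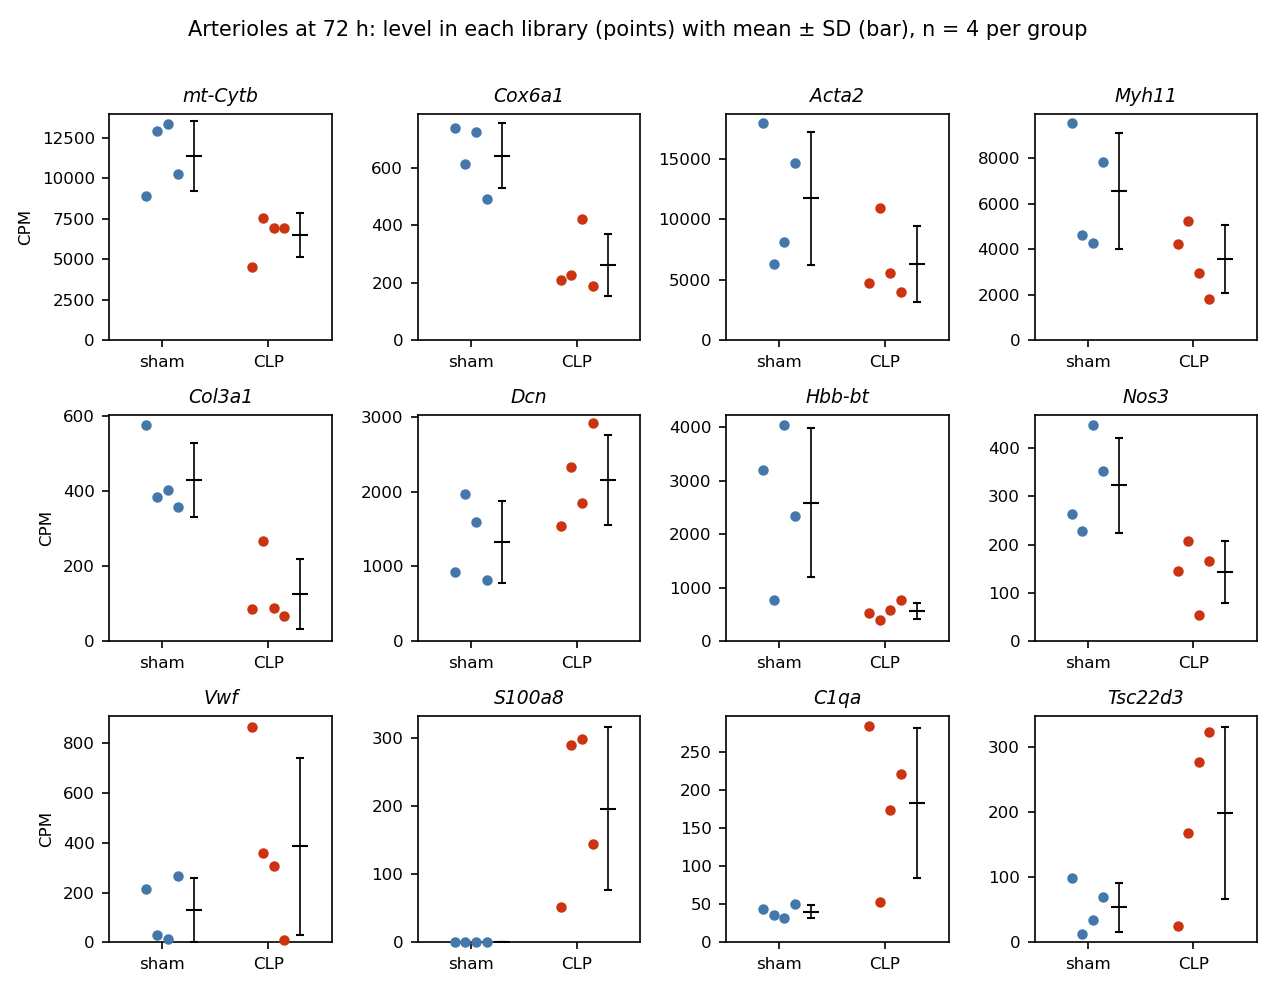
Level in CPM (vertical axes from 0) of 12 genes in each of the 4 sham and 4 CLP arteriole libraries at 72 h; points are libraries, bars the mean ± SD. mt-Cytb, Cox6a1, Col3a1, Hbb-bt, Nos3, S100a8 and C1qa separate the groups, whereas Acta2, Myh11, Dcn, Vwf and Tsc22d3 overlap.

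Genes known to be switched on by glucocorticoids stood higher in CLP, without passing the test. Of 14 listed, 5 were counted in all 8 libraries, all with a positive log2 fold change and a median of 0.87. Tsc22d3, the glucocorticoid-induced leucine zipper (chromosome X, 140539528 to 140600659), stood at 98.4, 13.27, 33.98 and 70.09 CPM in sham and at 25.72, 167.8, 277 and 323.3 in CLP (1.88 ± 1.15, unadjusted p = 0.107). CLP replicate 1 stayed in the sham range and the other 3 lay above it. The metallothionein Mt1, which binds zinc and also answers to glucocorticoids, stood at 72.96, 176.1, 10.86 and 153.2 CPM in sham and at 473.1, 97.03, 137.8 and 286.4 in CLP (1.27 ± 0.87). The list summed to 837.9 to 1212 CPM in sham and 1341 to 2157 in CLP, with no overlap, as 1 of 39 lists summed in this way. Of its 14 tested members 3 were higher at an unadjusted p below 0.05 and 0 lower, none of the 3 counted in all 8. The shares over all genes tested were 6.36% higher and 10.9% lower. Immediate early genes were not apart in this way, summing to 563.8 to 1335 CPM in sham and 756.3 to 1189 in CLP. Of 19, 10 were counted in all 8, 8 of them positive, with a median of 0.39 and none at that p. Of the 16 immediate early genes tested, 2 were higher at that p and 0 lower, beside 6.36% higher among all genes tested.

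Haemoglobin transcripts, carried by red blood cells and reticulocytes inside the vessels, stood lower in CLP arterioles, without passing the test. Hbb-bt and Hbb-bs are the adult beta-globin genes and lie side by side on chromosome 7 (103812524 to 103813996 and 103826534 to 103828096). Hba-a1 and Hba-a2 are the alpha-globin genes on chromosome 11 (32283511 to 32284465 and 32296489 to 32297298). The promoters of 3 of them are shown, since genes of both loci had lower means in CLP. The sequences run 5′ to 3′ over the 250 bases before the RefSeq start site on GRCm38.p6, and capitals mark 4 motifs on either strand. These are the CCAAT box, the CACCC box known to bind the erythroid factor Klf1, the TATAA box at which transcription starts are set, and GATAA, the core read by Gata1.
Hbb-bt, chr7:103813924-103814173, minus strand: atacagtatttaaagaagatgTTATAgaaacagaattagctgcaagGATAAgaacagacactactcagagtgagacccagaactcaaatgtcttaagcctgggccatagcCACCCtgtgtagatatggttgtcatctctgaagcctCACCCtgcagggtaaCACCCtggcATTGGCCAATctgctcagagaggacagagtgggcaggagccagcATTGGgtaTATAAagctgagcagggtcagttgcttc
Hbb-bs, chr7:103827929-103828178, minus strand: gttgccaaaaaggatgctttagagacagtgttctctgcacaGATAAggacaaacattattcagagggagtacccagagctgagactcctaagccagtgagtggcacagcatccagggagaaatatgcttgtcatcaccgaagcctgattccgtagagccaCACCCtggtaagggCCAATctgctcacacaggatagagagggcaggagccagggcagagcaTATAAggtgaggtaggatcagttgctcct
Hba-a1, chr11:32283422-32283671, plus strand: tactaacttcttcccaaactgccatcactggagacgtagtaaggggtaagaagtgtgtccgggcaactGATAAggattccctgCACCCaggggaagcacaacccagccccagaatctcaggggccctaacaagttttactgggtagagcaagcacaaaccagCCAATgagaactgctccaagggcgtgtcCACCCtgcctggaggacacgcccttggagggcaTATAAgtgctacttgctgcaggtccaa
Each of the 3 windows holds all 4 motifs, with TATAA beginning 28, 29 and 27 bases before the start site in the order shown. Of 32851 promoter windows of this length, 33.8% hold the CCAAT box, 52% the CACCC box, 22.8% the TATAA box and 22.6% the GATAA core on either strand. The motifs are a description of these letters and say nothing of what bound there.

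Hbb-bt stood at 3195, 779, 4042 and 2341 CPM in sham and at 525.3, 389.9, 592.4 and 766.3 in CLP, without overlap by a narrow gap (-2.19 ± 0.67, unadjusted p = 0.00368, adjusted p = 0.158). In the fit of the 8 libraries alone its adjusted p was 0.0406. Hbb-bs stood at 16170, 6228, 24650 and 14620 CPM in sham and at 5799, 4919, 3395 and 5731 in CLP, also without overlap (-1.64 ± 0.55). The alpha-globins overlapped between groups, at -1.40 ± 0.66 for Hba-a1 and -1.86 ± 0.65 for Hba-a2, since sham replicate 2 was low and CLP replicate 1 high. The pairs are close copies that can share reads, so the split within a pair is uncertain. The erythrocyte and platelet list summed to 9832 to 38510 CPM in sham and 5339 to 11830 in CLP. Haemoglobin was lower outside the arterioles too. In whole kidney of the same mice Hbb-bt was at -1.49 ± 0.27 (adjusted p = 0.000971), in glomeruli at -1.89 ± 0.35 (adjusted p = 0.0132) and in venules at -1.995 ± 0.54 (adjusted p = 0.289).

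Tubule genes gave a similar lower value with wide spread. Of 23 proximal tubule genes, 11 were counted in all 8 arteriole libraries, 9 of them negative, with a median of -1.11. Kap, the kidney androgen-regulated protein of proximal tubules, stood at 4484, 4282, 3148 and 1673 CPM in sham and at 2279, 1455, 386.5 and 623.9 in CLP (-1.52 ± 0.80, unadjusted p = 0.0698). In whole kidney Kap was at -1.70 ± 0.12 (adjusted p = 6.73e-11) and it passed in venules and peritubular capillaries as well. Gpx3, the secreted glutathione peroxidase of the same cells, had no such difference in arterioles, at 306.2 to 3113 CPM in sham and 881.7 to 3928 in CLP (0.11 ± 0.74).

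The genes counted in all 8 libraries with an unadjusted p below 0.05 were also ranked by log2 fold change. Hook3, an adaptor that links cargo to dynein (chromosome 8, 26021421 to 26119224), stood at 3.165, 27.2, 21.81 and 4.262 CPM in sham and at 206.5, 40.36, 223.2 and 191.7 in CLP (3.55 ± 0.98, unadjusted p = 0.000364). Abi2, part of the actin-regulating WAVE complex, stood at 0.2302, 0.08243, 0.1005 and 10.97 CPM in sham and at 35.82, 22.32, 85.16 and 79.85 in CLP (4.29 ± 1.73). Both separate the groups, with 3 of 4 sham libraries nearly empty for Abi2. Rdx, radixin, which ties actin to the membrane, was at 132.4, 119.8, 130.3 and 56.51 CPM in sham and 209.7, 246.5, 229.3 and 852.9 in CLP (1.81 ± 0.68). Tra2a, a splicing regulator, was at 83.67, 4.369, 115.6 and 82.96 CPM in sham and 227.3, 221, 436.5 and 246.1 in CLP (1.98 ± 0.82). In all 4 genes every CLP library exceeded every sham library. The remaining genes named on the higher side by the same rule, Mrps6, Camta2, Egln2, Magt1, Ech1, Fam32a, Fign and Foxc1, ranged from 1.79 to 2.80 and overlapped between groups.

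On the lower side Zc3h7b had the widest value (-5.16 ± 2.60) at 3.798 to 71.14 CPM in sham and 0.0697 to 1.817 in CLP. Rere, a nuclear receptor co-regulator (chromosome 4, 150281646 to 150621966), stood at 173.4, 71.39, 176.6 and 273.7 CPM in sham and at 22.37, 38.54, 11.71 and 38.48 in CLP (-2.65 ± 0.97, unadjusted p = 0.00671). Psmd8 of the proteasome cap was at 108.2, 196.9, 111.2 and 77.19 CPM in sham and 59.73, 24.14, 2.255 and 0.5345 in CLP (-2.51 ± 1.05). These 3 genes and Dctn6 of dynactin (-2.31 ± 0.95) had no overlap between groups. Acy3, Armcx2, Fbp1, 4833439L19Rik, Rps2, Slc22a12 and Paics, the others named on this side, ranged from -3.67 to -2.31 and overlapped. Acy3, Fbp1 and Slc22a12 are enzymes and a urate transporter of proximal tubules.

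Some of the smallest p-values belonged to genes at or near 0 in a whole group, and they were chosen after their values were seen. Hspd1, the mitochondrial chaperonin HSP60 (chromosome 1, 55077835 to 55088243), stood at 3.28, 114.5, 93.19 and 173.8 CPM in sham, at 0.0697 CPM in CLP replicate 1 and at 0 in the other 3 CLP libraries (adjusted p = 0.0734). Ctnnbip1, an inhibitor of beta-catenin, was counted in all 4 sham libraries at 16.58 to 121.9 CPM and in no CLP library (adjusted p = 0.158). Against the floor of 3 counts this is 197.7-fold lower, with the same limit as for S100a8. Rab13, a small GTPase of junction transport, was also at 0 in all CLP libraries and at 0.0575, 58.36, 24.83 and 185.3 CPM in sham. Lrg1, an acute phase glycoprotein, was the reverse, at 0 in all sham libraries and at 83.57, 0, 52.12 and 0.748 CPM in CLP. Zeros were common throughout these libraries, as the counts of genes by library show, and their part in these values was not tested.

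The arteriole differences at 72 h were set against those at 24 h in other mice by an interaction term in the same fit. It passed an adjusted p of 0.05 for 188 of 12183 genes (1.54%), 109 more positive and 79 more negative at 72 h, of which 2 were counted in all 8 libraries at 72 h. Leaving out any 1 of the 8 libraries at 72 h lowered the number to between 4 (without CLP replicate 1) and 34 (without CLP replicate 2). Mrps6, a protein of the mitochondrial ribosome, differed by 4.79 ± 1.38 (adjusted p = 0.0491). At 72 h it was higher in CLP (2.80 ± 0.99) and at 24 h lower (-2 ± 0.962), neither passing alone. Rcn1, a calcium-binding protein of the endoplasmic reticulum, was the other, at 14.27 ± 2.42. For the genes described above the values at the 3 times can be read side by side. mt-Cytb had a log2 fold change of 0.12 ± 0.18 at 4 h, 0.03 ± 0.18 at 24 h and -0.81 ± 0.18 at 72 h. Nos3 was at 0.39 ± 0.49 at 4 h, 0.50 ± 0.49 at 24 h and -1.17 ± 0.49 at 72 h. Col3a1 was at 0.02 ± 0.53, -0.19 ± 0.53 and -1.76 ± 0.55 at the same times. Cox6a1 was already at -0.79 ± 0.39 at 24 h. The metallothionein Mt1 was at 3.39 ± 0.94 at 4 h, 2.38 ± 0.90 at 24 h and 1.27 ± 0.87 at 72 h. The interaction with 24 h did not pass for mt-Cytb, Nos3, Col3a1, Cox6a1 or Mt1. The 4 h comparison called 1 gene (0.00821%) and the 24 h comparison 2 (0.0164%).

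The last comparison asked whether the CLP difference in arterioles departed from that in the other 3 dissected compartments of the same mice, with mouse as a block. It passed for 26 of 13475 genes (0.193%), 11 more positive and 15 more negative in arterioles. Without any 1 of the sham mice the number was 7 to 11, and without any 1 of the CLP mice 26 to 39. The 5 smallest adjusted p-values belonged to S100a8, Rgs5 and Cyp26b1 on the positive side and Slc13a1 and Prodh on the negative. The positive side also held Hba-a2, Acta2, Myh11, Sparcl1 and Arpc1b. The negative side also held Hspd1, Ctnnbip1 and mt-Rnr2 and the metabolic genes Cyp2d26, Cyp2e1, Cyp4a14, Acaa1b, Acy1 and Papss2. In the peritubular capillaries the CLP libraries had means of 0 CPM for S100a8 and Myh11, 0.01915 for Acta2 and 0.02578 for Hba-a2. Those capillary libraries stood apart, with 2625 of 11772 genes called between CLP and sham (22.3%), 2413 of them lower (20.5%). Without them, against glomeruli and venules alone, 4 of 13174 genes passed (0.0304%): Prodh, Hspd1, Ctnnbip1 and Wdr61, all more negative in arterioles. The choice to leave them out was made after seeing the data. Hspd1 differed by -11.36 ± 1.69. It was at 109.7 CPM in sham and 72.16 in CLP glomeruli, and at 173 and 218.4 CPM in venules, while its arteriole means were 96.19 and 0.0174 CPM. Prodh, Ctnnbip1 and Wdr61 were at 0 in all 4 CLP arteriole libraries, and none of the 4 genes was counted in all 8.

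Whole kidney of the same mice gave values to set beside those of the arterioles. It called 581 of 14936 genes at 72 h (3.89%), where glomeruli called 5 (0.0343%) and venules 6 (0.0443%). S100a8 was at 6.78 ± 0.46 (adjusted p = 5.55e-10), C1qa at 2.22 ± 0.22 (adjusted p = 2.22e-08) and Cp at 1.83 ± 0.23 (adjusted p = 4.61e-06). Dcn was at 0.75 ± 0.18 (adjusted p = 0.00769) and Tsc22d3 at 0.94 ± 0.21 (adjusted p = 0.0066), each with the sign of the arterioles. H2-Aa was lower, at -0.83 ± 0.15 (adjusted p = 0.00038). For genes of the vessel wall and respiratory chain the whole kidney values were small: mt-Cytb was at -0.20 ± 0.20, Cox6a1 at -0.02 ± 0.10, Acta2 at 0.06 ± 0.25, Myh11 at -0.03 ± 0.29 and Nos3 at 0.25 ± 0.25, none passing. Col3a1 was at -0.76 ± 0.30 there and at -2.21 ± 0.67 in venules, neither passing. For these genes the difference between arterioles and whole kidney was not tested.

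**Figure D5:**
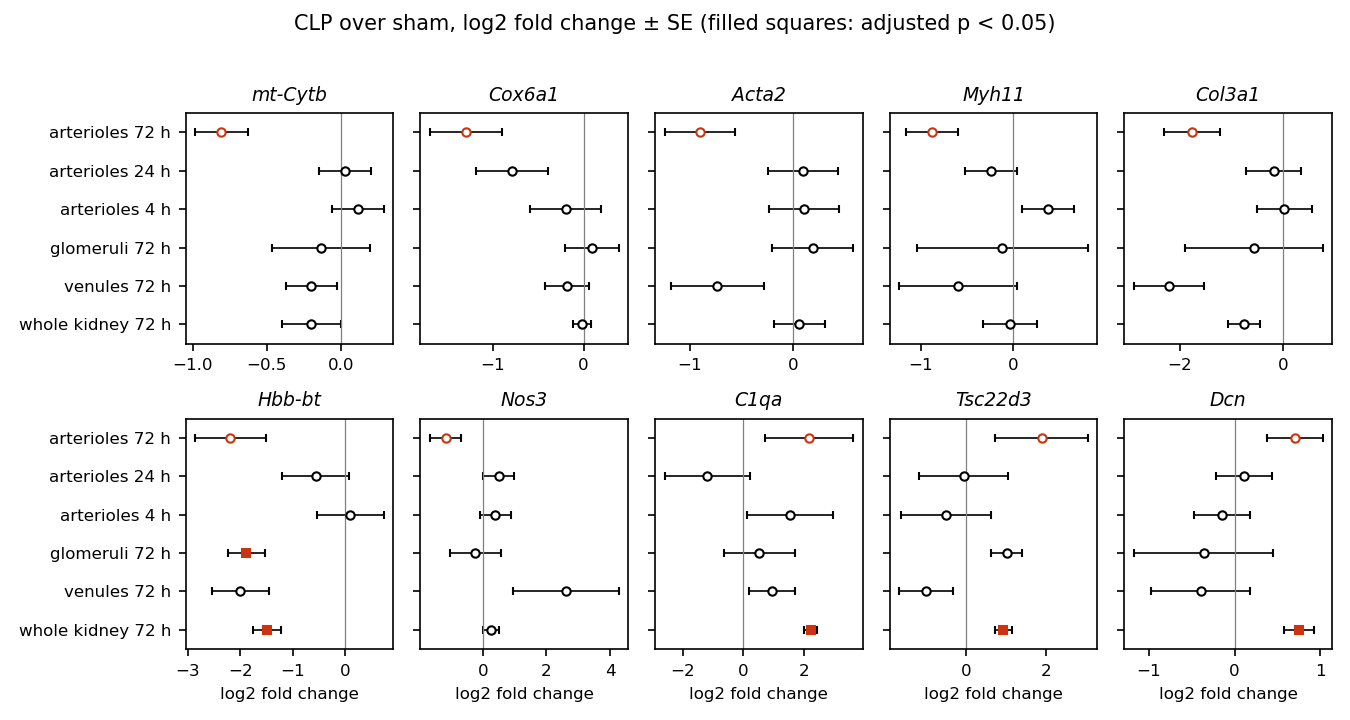
Log2 fold change of CLP over sham ± SE (horizontal axes) for 10 genes in arterioles at 72, 24 and 4 h and in glomeruli, venules and whole kidney at 72 h (rows). Filled squares passed an adjusted p of 0.05 and open circles did not; the arterioles at 72 h (red) are open circles for all 10 genes, at -0.81 for mt-Cytb and -2.19 for Hbb-bt.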

How the data were processed

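The authors deposited 1 table of raw read counts per gene for 140 libraries, and the 28 arteriole libraries and the other libraries of the 8 mice at 72 h were used here. The submitters' processing notes name STAR 2.7, featureCounts, HTSeq 0.13, SAMtools 1.9 and, for quality, MultiQC 1.7 with FastQC 0.11.8. They give the builds GRCm38.p6 and GRCm39. These notes do not state the role of each, nor whether counting used strand. Names and coordinates are from GENCODE M21 (GRCm38), which held 34185 of the 34255 gene IDs. Groups come from the labels, which say the replicates are biological, 1 mouse each.

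CPM were computed from totals scaled by TMM, except in the marker sums compared between compartments, which used unscaled totals. Differences were tested with edgeR 4.0.16 (R 4.3.3), by its quasi-likelihood test on 28 arteriole libraries with Benjamini-Hochberg adjustment over 12183 genes that passed filterByExpr. The script was tested on simulated data. Alternatives used limma 3.58.1 and DESeq2 1.42.0, other scalings, filters and sets of libraries, and each replicate left out.

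The members and gene lists were chosen with earlier results of these data known. Sums per library were taken for 39 lists. The groups did not overlap only for the nuclear-encoded respiratory chain, neutrophils, macrophages and monocytes, and glucocorticoid receptor targets. Of all ways to split 8 different values 4 against 4, a fraction of 0.02857 gives no overlap. Genes were named by fold change (up to 12 a side among those counted in all 8 libraries with an unadjusted p below 0.05), by level within each list (up to 4), as coagulation, adhesion and cytokine genes counted in all 8, and by smallest adjusted p of each interaction. Acaa1b, Acy1, Actn4, Arpc1b, Col1a1, Col1a2, Col3a1, Col4a2, Cox4i1, Cox5a, Cox6a1, Cox7a2, Cox7b, Cyp2d26, Cyp2e1, Cyp4a14, Des, Edn1, F3, Ifitm3, Lmod1, Lrg1, Myl6, Ndufa1, Ndufa2, Ndufs8, Papss2, Rab13, Ren1, S100a9, Sparcl1, Tpm1, Uqcrq, mt-Nd1 and mt-Rnr1 fall outside this rule and were chosen after their values were seen. A gene that the rule names is not reported here.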

Additional observations from a re-analysis of the deposited data

Results flagged for a closer look

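In 12 of the 171 groups of 4 libraries examined, 1 library stood apart from the other 3 by Dixon's criterion. For normally distributed values chance meets it in about 1 of 20 groups. Among genes lower in CLP, Cox6a1 was at 423.5 CPM in CLP replicate 3 against 187.9 to 227.9 in the others, and Col3a1 at 265.7 CPM in CLP replicate 2 against 67.66 to 87.93. Both high libraries stayed below every sham library. Rsad2 was at 69.05 CPM in CLP replicate 4, where the others held 0.2601 to 2.997, and Hspd1 at 0.0697 CPM in CLP replicate 1 with the others at 0. Sparc was at 2623 CPM in sham replicate 1 against 1505 to 1662. Among genes higher in CLP, Lmod1 was at 1837 CPM in CLP replicate 1 against 683 to 856.9, and Tra2a at 436.5 CPM in CLP replicate 3 against 221 to 246.1. Replicate 4 gave both Rdx values, 56.51 CPM in sham against 119.8 to 132.4 and 852.9 CPM in CLP against 209.7 to 246.5. Abi2 was at 10.97 CPM in sham replicate 4 against 0.08243 to 0.2302. The summed cytokine and chemokine genes were at 167.9 CPM in sham replicate 4 against 380.3 to 421.6, and the summed neutrophil genes at 0.7893 CPM in the same library with the other sham libraries at 0. For Hspd1 and the neutrophil sum any value above 0 would have met the criterion, since the other libraries were at 0.

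The difference between CLP and sham in arterioles departed from that in the other 3 dissected compartments (edgeR's interaction test, log2 scale) by 11.282 for S100a8, 13.655 for Cyp26b1, 4 for Rgs5, 3.222 for Hba-a2, 2.611 for Acta2, 5.248 for Arpc1b, 3.233 for Sparcl1 and 2.762 for Myh11. It departed in the negative direction by -11.609 for Prodh, -0.843 for mt-Rnr2, -12.654 for Ctnnbip1, -10.024 for Wdr61 and -9.325 for Hspd1. For metabolic genes and transporters it was -8.811 for Slc13a1, -10.187 for Cyp2d26, -7.679 for Acaa1b, -10.158 for Cyp2e1, -11.929 for Cyp4a14, -10.93 for Acy1 and -7.443 for Papss2. Against glomeruli and venules alone the values were -11.668 for Prodh, -11.363 for Hspd1, -12.513 for Ctnnbip1 and -10.047 for Wdr61. Against the 24 h arterioles the 72 h difference departed by 14.271 for Rcn1, 11.723 for Cyp26b1, 4.794 for Mrps6, -10.861 for Hspd1, -17.44 for Prodh and -11.774 for Ctnnbip1. Fitted values of genes at 0 in a whole group depend on the prior count and are no measure of size.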

How the results depend on the processing

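The number of genes passing between CLP and sham arterioles at 72 h was 0 with RLE scaling, with the 16 libraries at 24 and 72 h, and among genes counted, or counted at least 10 times, in all 8 libraries. It was 2 in the 8 libraries alone, 6 without a filter on low counts, 6 with limma-trend, 31 with voom and sample quality weights, 1851 with DESeq2, and 0 to 5 leaving out 1 replicate. The cause of these differences was not tested. With a replicate block in the 8 libraries 10 genes passed, among them Hbb-bs, Hbb-bt, Hba-a1, Hba-a2, S100a8, mt-Nd2 and Kap. Sham and CLP mice share only a number, and the deviations of same-numbered libraries correlated at 0.056, -0.06, 0.068 and -0.008. The 188 genes of the time interaction became 4 to 34 leaving out 1 replicate. The 26 genes of the compartment interaction became 7 to 39, and 4 against glomeruli and venules alone, an alternative chosen after seeing the data. The difference in detected genes ranged from -1329 to -455.8 leaving out 1 replicate. Of 2032 gene values under an alternative, 1930 kept their sign and stayed short of the threshold, 58 passed it and 44 changed sign. The sign changed with the replicate block for Itgb3 (-0.851), Ndufs8 (-1.099) and Ren1 (-0.297), with limma-trend for Itgb3 (-0.881), Ndufs8 (-1.251) and Thbd (-0.021), and with voom for Itgb3 (-0.904), Ndufs8 (-1.615), Ren1 (-0.904), Thbd (-0.09), Sparcl1 (-0.041) and Mylk (0.136). Leaving out 1 replicate changed it for Anxa5 (-0.339 to 0.34), Atp5e (-0.005 to 0.569), Cyp4a14 (-10.677 to 1.465), F2r (-0.037 to 0.635), F3 (-4.259 to 2.03), Gpx3 (-0.354 to 0.459), Icam2 (-1.05 to 0.013), Itgb3 (-1.4 to 0.43), Jam3 (-0.056 to 1.841), Myl9 (-0.704 to 0.013), Mylk (-0.405 to 0.143), Ndufa2 (-0.486 to 1.022), Ndufs8 (-0.595 to 0.956), Pecam1 (-0.28 to 0.178), Ren1 (-0.484 to 1.902) and Vcam1 (-0.242 to 0.372), where the values are the range over all 8. With 4 mice a group and many genes at 0 in some libraries, differences of genes not counted in all 8 libraries are poorly measured here.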
